A study of Zea mays with 144 samples.

Results

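The features described here are 171 of the 12160 features of a spotted maize cDNA array, chosen by their step from early to mid-microspore anthers and their flatness in the step before it. A feature was selected on a mean log2 ratio of at least 1.2 from early to mid-microspore, with a value above 0 on each of 4 slides, and on a mean within 0.5 of 0 from tetrad to early microspore over 4 other slides. In all, 254 features met the first condition and 175 met both. The choice also leaves out the genes aldh5, SPS, ZmCASP1 and Amy2, which took away 4 features, as the SPS feature lay outside the flat window already. Because these 8 slides chose the members, their values are given as a description with no test, and the tests below use slides that the choice did not, apart from 1 alternative fit to all 48 slides in the closing section. The members carry little annotation. The array annotation ties 86 of them to 1 gene each (82 genes), 3 to several genes and 82 to none, and 10 have a gene name other than a locus identifier.

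Anthers of the maize inbred line Ky21 were dissected from upper and lower florets, the pair of flowers within each spikelet of the tassel. Light microscopy placed them at 6 stages, from meiocyte through dyad/tetrad (mixed), tetrad, early microspore and mid-microspore to mid/late microspore (mixed), with no treatment or mutant in the series. Each of 24 pools held equal amounts of RNA from 1 to 4 individuals, with 2 pools per stage and floret, and the RNA was amplified before labelling with Cy3 or Cy5. The pools formed 2 sets, and each of 48 slides compared 2 pools of one set, either neighbouring stages, the last with the first stage, or the florets at one stage. Every slide has 3 scans, of low, medium and high intensity, and its value here is their mean.

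In an anther, the meiocytes divide into tetrads of haploid cells held in a callose wall. When that wall is dissolved the microspores are released, enlarge, form a large vacuole and lay down the pollen wall, while the surrounding tapetum, the innermost layer of the anther wall, feeds them and later degenerates. The mid-microspore stage falls after release and before the microspore divides into the vegetative and generative cells of the pollen grain. Whole anthers were used, so microspores, tapetum and the outer wall layers all contributed RNA, and fewer cells of a type cannot be told apart from less RNA per cell.

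The arrays give ratios of one pool to another and no level of a transcript in itself. Dyes are recorded for every pool, but the numerator and the log base of the deposited ratios are not. Stage slides were taken as Cy5 over Cy3 and values as natural logs, and with the sign turned every higher and lower given here would exchange. Another log base would rescale all log2 values by one factor and leave the calls as they are, but it would change which features meet the thresholds. In the meiocyte list, rad51a, a recombinase gene of meiotic recombination, was lower at the last than at the first stage under this reading (log2 difference -1.84 ± 0.39, SE, limma adjusted p = 0.00508). The other 3 features of the list did not pass: ZYP1, a synaptonemal complex gene, had -1.46, afd1, a meiotic cohesin gene, -0.67 and rad51b -0.10. In the early to mid-microspore step itself afd1 and rad51a had 1.07 and 0.62, above 0 on all 4 slides, and ZYP1 and rad51b had -0.81 and -0.10, so this list does not settle the direction there. Across all features the 4 slides of the early to mid-microspore step had r between 0.405 and 0.582 with each other.

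On the slides that chose them, the members' step was steep and came at one time by the terms of the choice itself. Their median log2 ratio from early to mid-microspore was 1.56, a 2.95-fold difference, and the largest was 5.14. In 37 members it was 2 or more and in 81 it was under 1.5. The median of the members was 1.78 on the upper floret slide and 1.80 on the lower floret slide of set 1, and 1.48 and 1.61 on those of set 2, against medians between -0.01 and 0.03 over all features. In pool values, which have their zero at the average over a set's 12 pools, the members' medians lay between -0.61 and -0.45 at the meiocyte, dyad/tetrad and tetrad stages in both florets. At the early microspore stage they were -0.51 in upper and -0.68 in lower florets. At mid-microspore they stood at 1.09 and 1.02, and at mid/late microspore at 1.16 and 0.89. All 8 pools of the last pair of stages had member medians above 0 and all 16 earlier pools had medians below 0.

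**Figure D1:**
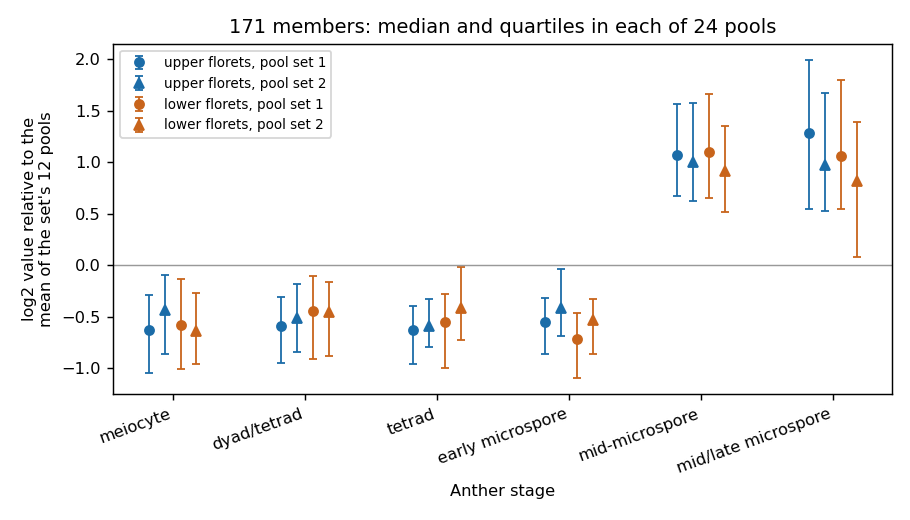
Median and quartiles of the 171 members in each of the 24 pools, by anther stage, as log2 values with zero at the average of a set's pools, with upper florets in blue, lower in orange, set 1 as circles and set 2 as triangles. The 16 pools up to early microspore have medians between -0.72 and -0.41, and the 8 pools of the last pair of stages between 0.82 and 1.29; the step between them is what the members were chosen by.

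The highest stage of a member was mid-microspore in 82 cases and mid/late microspore in 84, with 4 highest at the meiocyte and 1 at the dyad/tetrad stage. The lowest stage was spread more widely, over meiocyte (70), early microspore (54), tetrad (30) and dyad/tetrad (16), with 1 member lowest at mid/late microspore. Across the 24 pools the members' correlation with their own median profile ranged from -0.24 to 0.99, with a median of 0.83, and was above 0.8 in 101 of them. These correlations share the slides that chose the members and are a description. A further 96 features that are not members had r above 0.9 with the same profile, and 21 of those had a rise of at least 1.2.

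The edges of the choice were not sharp. Just inside the rise threshold lay feature 4890 (LOC100192577) at 1.203, feature 3260 at 1.204 and feature 1778 (LOC100279920) at 1.21. Just outside lay feature 4739 (LOC100283053) at 1.197, feature 8504 (LOC100274325) at 1.195 and feature 11736 (LOC100286307) at 1.184. At the flat window, features 6054, 6111 (LOC100217257) and 9561 (LOC100277183) were kept with tetrad to early microspore means of -0.494, 0.489 and -0.484. Feature 7774, of pck2, whose name is that of a phosphoenolpyruvate carboxykinase gene, fell outside at 0.502, as did features 3885 at 0.506 and 4735 (LOC100279255) at -0.508.

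The steepest member was feature 10981, tied to LOC100275070, a gene without a name in the annotation. Its log2 ratio from early to mid-microspore was 4.79 and 5.21 on the upper and lower floret slides of set 1 and 5.33 and 5.24 on those of set 2, a mean of 5.14 or 35.3-fold. All 4 slides stood between 4.79 and 5.33, and the tetrad to early microspore mean was 0.18. Feature 2071, tied to no gene, had 4.49, 5.87, 3.72 and 3.29 in the same order, a mean of 4.34.

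Feature 2247 of LOC100282631 followed with 3.81, 4.55, 3.50 and 3.48 in the order upper and lower of set 1, then upper and lower of set 2. Feature 8265 of LOC100282493 had 2.48, 4.47, 3.73 and 3.78 in that order. Feature 8291 of LOC100193626 had 4.38 and 5.08 in set 1 and 2.58 and 1.94 in set 2, so that the sets did not overlap for this member. The remaining 8 of the 12 one-gene members with the largest rise had means between 2.35 and 2.65, and the lowest of their slide values was 1.32, of feature 81 (LOC100383653) in the upper floret of set 2.

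Some genes were met by more than one member. All 3 features of LOC100280212 were members, with rises of 2.65 (feature 11708), 2.46 (feature 3372) and 2.26 (feature 8630). Both features of LOC100275317 were members with 2.63 and 1.34, and both of LOC100282631 with 3.84 and 1.82. In the other 24 of the 27 member genes that have several features on the array, the further features varied. Their 26 features that are not members had a median rise of -0.03, against 0.03 over all features, and 11 were above 0 and 2 above 1. Feature 11341 of LOC100278584 (1.06) and feature 1828 of LOC100282274 (1.02) were those above 1. Of the 26, 5 were higher at the last than at the first stage in the test described below, among them feature 11341 at 2.65 and feature 9872 of LOC100284307 at 1.00. Features 1626 (LOC100282137), 9574 (LOC100216713) and 4312 (LOC100284132) were lower, at -0.72, -0.85 and -1.18. Over all features 13.8% were higher and 13.8% lower in that test. For LOC100191756, member feature 3057 had 1.45 while features 2359 and 2735 of the same gene had -1.92 and -2.15 in the same step and 2.29 and 2.57 in the step before it.

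Of the 10 members with a gene name, 3 are of genes named for hormone synthesis or for hormone and stress signalling. SnRK2.8, a protein kinase gene of the family that acts in abscisic acid and osmotic stress responses, had 2.15 and 0.60 on the upper and lower slides of set 1 and 2.34 and 3.16 on those of set 2 (feature 11062, mean 2.06). RR6, a response regulator gene of the cytokinin signalling relay, had 2.10, 2.46, 1.35 and 0.63 in that order (feature 4636, mean 1.63). The gene an1, for the ent-copalyl diphosphate synthase that opens gibberellin synthesis, had 1.90, 1.07, 0.21 and 1.95 (feature 9924, mean 1.28). Its other feature, 7042, had a mean of -0.68.

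The gst19 gene, for a glutathione transferase, an enzyme class that conjugates glutathione to reactive and foreign compounds, had 3.20, 0.81, 1.34 and 1.18 (feature 5657, mean 1.63). The fad7 gene, for an omega-3 fatty acid desaturase of plastid membranes, had 1.27, 1.04, 2.25 and 1.35 (feature 3765, mean 1.48). PIP2-1, a plasma membrane water channel gene, had 1.85 and 2.96 in set 1 and 0.24 and 0.42 in set 2 (feature 700, mean 1.37), and its other feature, 2458, had a mean of 0.33.

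GRF11 had 3.41 and 4.02 in set 1 and 0.76 and 0.51 in set 2 (feature 7137, mean 2.18). In GRF11 and PIP2-1 the slides of the sets did not overlap. The bZIP transcription factor gene bZIP45 owed its mean of 1.24 largely to the lower floret slide of set 2, with 0.75, 0.70, 0.39 and 3.12 (feature 5035). The bss1 gene had a mean of 1.28 (feature 6549) and zfp30 of 1.25 (feature 11127), the latter with 1.16 to 1.35 on all 4 slides. The other feature of zfp30, 11718, had 0.31.

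Whether the members were also higher at the end of the series than at its start was measured on slides that did not choose them. They were: 110 of 171 members (64.3%) were higher in mid/late microspore than in meiocyte anthers, where 13.8% of all 12160 features were higher. Only 2 members (1.17%) were lower, against 13.8% of all features (limma on pool values, Benjamini-Hochberg adjusted p under 0.05 over all features, n = 2 pools per stage and floret). The members' median log2 difference was 1.47, against -0.01 over all features, and 157 of 171 lay above 0. Among the 110 that passed, the difference ran from 1.37-fold to 60.0-fold with a median of 4.23-fold, and 62 of them exceeded 2 on the log2 scale.

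Averaged over florets this difference rests on the 4 slides that put the last beside the first stage. In each set those slides have the dye order opposite to that of the early to mid-microspore slides, and the sets have opposite orders, so a fixed dye bias enters with opposite signs. In 130 members (76.0%) the difference was above 0 in all 4 combinations of floret and set, against 27% of all features, and in 5 it was below 0 in all 4. The 59 members that did not pass had differences between -1.20 and 1.46. Of the 86 one-gene members, 63 were higher. The p-values rest on the spread of fitted pool values, which carries slide and labelling error besides differences between pools. Pool values fitted from shared slides are not independent, and the test treats them as if they were. All pools were made from individuals of the same line.

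**Figure D2:**
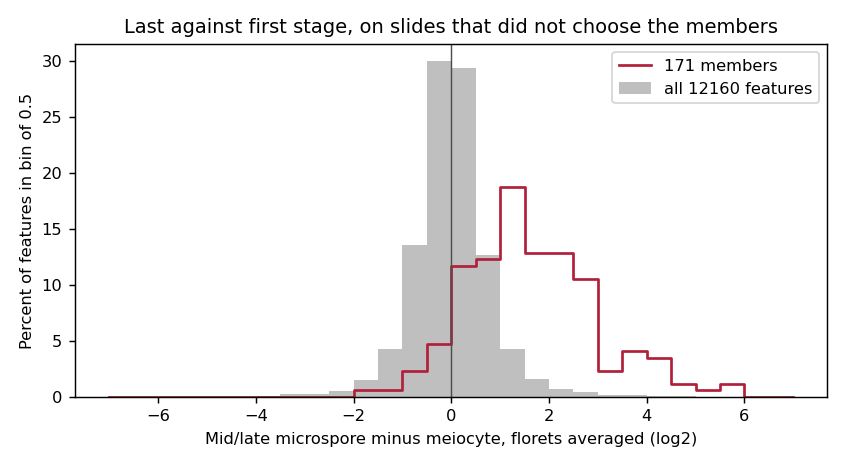
Distribution of the log2 difference between mid/late microspore and meiocyte anthers, florets averaged, in bins of 0.5, as a percentage of the 171 members (red line) and of all 12160 features (grey bars). All features centre on a median of -0.01 and the members on 1.47, with members reaching 5.91 and going down to -1.65.

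Feature 10981 (LOC100275070) again headed the members. Its pools differed by 6.65 and 6.57 in the upper and lower florets of set 1 and by 5.07 and 5.34 in those of set 2, a log2 difference of 5.91 ± 0.56 (SE, limma adjusted p = 2.52e-05), or 60.0-fold. Feature 11526, tied to no gene, had the evenest pools among the 5 largest, with 5.39, 5.82, 5.62 and 5.98 and a difference of 5.70 ± 0.15 (limma adjusted p = 1.51e-09). Feature 8291 (LOC100193626) had 5.22 ± 0.55, feature 2071 had 4.87 ± 0.38 and feature 8265 (LOC100282493) had 4.68 ± 0.17. All 12 of the one-gene members with the largest rise passed, with differences between 2.28 and 5.91. The 3 features of LOC100280212 had 4.0, 3.78 and 3.09, and all 3 passed.

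**Figure D3:**
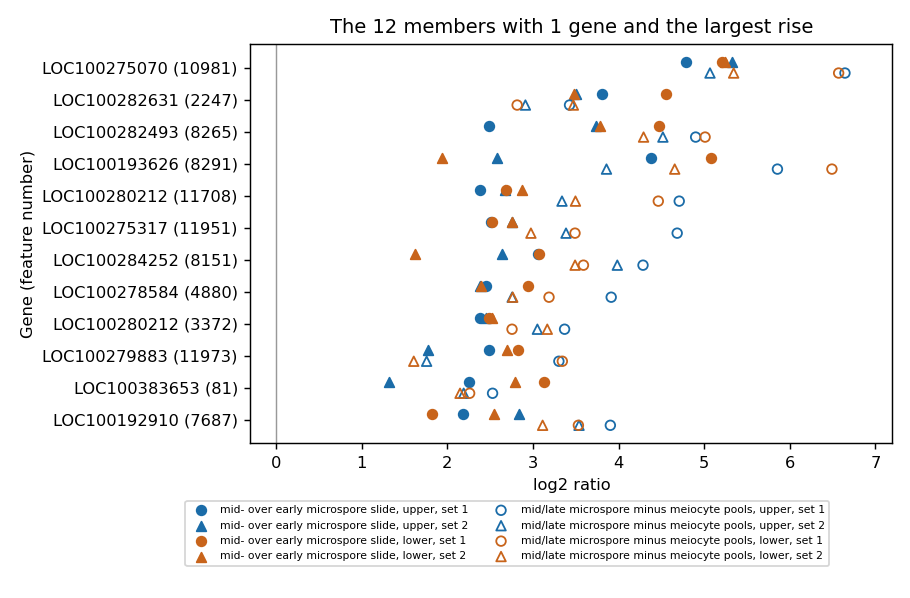
Log2 ratios of the 12 one-gene members with the largest rise: filled symbols are the 4 slides of mid- over early microspore that chose them, open symbols the 4 differences between mid/late microspore and meiocyte pools, by floret (colour) and set (shape). Every symbol lies above 0; for feature 8291 the filled symbols of the sets lie apart, at 4.38 and 5.08 against 2.58 and 1.94.

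Of the named members 7 of 10 were higher at the last stage. The difference was 2.91 ± 0.35 for gst19, 2.78 ± 0.43 for SnRK2.8, 2.64 ± 0.20 for bss1, 1.90 ± 0.45 for GRF11 and 1.13 ± 0.17 for zfp30 (SE, limma adjusted p between 5.52e-06 and 0.00921). In each of these 5 genes all 4 pool differences were above 0. The calls of an1 (1.25 ± 0.43, limma adjusted p = 0.0482) and RR6 (0.46 ± 0.15, limma adjusted p = 0.0389) were narrow: 12 and 13 of the 17 other settings ended them. Without the lower meiocyte pool of set 2, GRF11 and zfp30 missed it, with adjusted p of 0.0843 and 0.0697. With columns scaled to one spread GRF11 and SnRK2.8 missed it, with adjusted p of 0.118 and 0.0591. Over the 17 settings the limma adjusted p ran from 0.00517 to 0.118 for GRF11, from 0.000308 to 0.0591 for SnRK2.8, from 3.41e-05 to 0.0697 for zfp30, from 0.0125 to 0.523 for an1 and from 0.0239 to 0.478 for RR6.

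The differences of fad7 and PIP2-1 were both 0.08 and that of bZIP45 was 0.47, with limma adjusted p of 0.892, 0.933 and 0.404. In fad7 the upper pools differed by 0.48 and 0.44 and the lower pools by -0.55 and -0.04. With the median of the 3 scans bZIP45 had 0.60 and passed (limma adjusted p = 0.0279, with a range from 0.0279 to 0.979 over the 17 settings).

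The 2 members that were lower at the last stage were feature 1930 (LOC100502395), at -1.65 ± 0.30 (SE, limma adjusted p = 0.00195), and feature 3434, tied to no gene, at -0.97 ± 0.26 (limma adjusted p = 0.0176). Feature 1930 had -2.61, -1.02, -1.08 and -1.87 in its 4 pool differences and 1.96, 1.16, 1.45 and 0.41 on the slides that chose it. Features 5264, 7934 and 3782 completed the 5 lowest, at -1.20, -0.86 and -0.83, and did not pass.

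The share higher at the last stage, 13.8% over all features, was set out by the size of the members' rise. Among the 37 with a rise of 2 or more, 33 were higher at the last stage (89.2%), with a median difference of 2.79. Among the 53 between 1.5 and 2 there were 37 (69.8%, median 1.58), and among the 81 below 1.5 there were 40 (49.4%, median 1.08).

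Both florets showed the difference when fitted separately. In upper florets 83 members were higher (48.5%, against 6.18% of all features) and 1 was lower (0.585%, against 5.39%), with a member median of 1.6. In lower florets 78 were higher (45.6%, against 6.38%) and 1 was lower (against 5.44%), with a median of 1.57. In 72 members both florets passed, a count with no share of all features set beside it. Without the set 1 meiocyte or mid/late microspore pool the upper count was 49 or 50, and without the same pools of the lower floret, or its set 2 meiocyte pool, the lower count was 50, 44 or 50. The counts without single pools also have no share of all features set beside them.

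A test of the floret difference in this change found 0 members in either direction, and 0 of all features (0%) in limma. At an unadjusted p under 0.05 there were 0 members with a larger change in upper and 3 (1.75%) with a larger change in lower florets, against 0.288% and 0.493% of all features, and the member values ran from -2.53 to 1.70. A difference that did not pass with 2 pools per group is not shown to be absent.

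Between meiocyte and dyad/tetrad anthers, a step in which neither stage was used by the choice, few members differed. In limma none was higher (0 of 171, against 0.00822% of all features) and 1 was lower (0.585%, against 0.0411%), and at an unadjusted p under 0.05 there were 11 and 7 (6.43% and 4.09%, against 2.93% and 2.58% of all features). The median was 0.09, with a range from -2.02 to 1.52. The member that fell was feature 2247 of LOC100282631, at -1.37 ± 0.19 (SE, limma adjusted p = 0.0219), a call that was lost in each fit that left out 1 meiocyte or dyad/tetrad pool. Mid-microspore could not be tested against tetrad free of the choice, since mid-microspore pools took part in it. On the slides not used for choosing, mid-microspore minus tetrad was above 0 in 155 of 171 members, with a median of 1.52 against 0.01 over all features.

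After mid-microspore the members parted. From mid- to mid/late microspore their median was 0.09, and 52 members went up on all 4 slides, 36 went down on all 4 and 83 had mixed signs. These slides carry mid-microspore pools that also served in the choice, so the values are a description. They also carry the mid/late microspore pools that form the last-against-first difference, so the counts of members higher at the last stage in each kind are not independent of the kind. Of all features, 39.6% of the 1386 that went up on all 4 slides and 8.99% of the 1480 that went down were higher at the last stage.

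Among the 52 that went on up the median step was 0.79, and 46 were higher at the last stage than at the first. Feature 11526 had 1.88, 2.92, 2.33 and 3.05 (mean 2.55), feature 8291 had 2.26, 1.18, 2.10 and 2.49 (mean 2.01), and bss1 had 1.85, 1.93, 1.47 and 0.98 (mean 1.56), in the order upper and lower of set 1, then of set 2. None of these 12 values lay below 0.98.

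Among the 36 that came down the median step was -0.82, yet 20 of them were still higher at the last stage than in meiocytes and 0 were lower. Feature 762 of LOC100281627 had -2.13, -0.59, -1.82 and -1.85 after a rise of 2.2, and stood 1.37 ± 0.28 above its meiocyte value (SE, limma adjusted p = 0.00405). Feature 3791 of LOC100285930 had -1.13, -0.31, -4.18 and -0.88, with the upper floret slide of set 2 far below the others. Feature 1107, tied to no gene, had the largest mean fall of -2.14, with -3.14 and -4.11 in upper against -0.34 and -0.96 in lower florets.

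**Figure D4:**
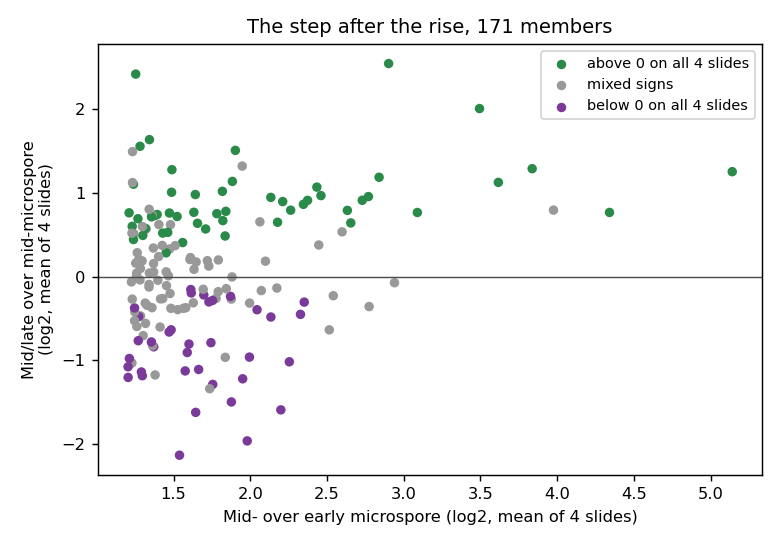
Step from early to mid-microspore (horizontal) against the step from mid- to mid/late microspore (vertical) for the 171 members, both as log2 means of 4 slides; green points were above 0 on all 4 slides of the second step, purple below 0 on all 4 and grey mixed. The second step runs from -2.14 to 2.55 with a median of 0.09, and both steps share the mid-microspore pools.

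Differences between florets were read from 24 floret slides, none of which served in the choice. Averaged over stages, 28 members were higher in upper florets (16.4%, against 13.7% of all features) and 19 in lower florets (11.1%, against 12.8%), so the members' shares lay near those of the array (limma, Benjamini-Hochberg adjusted p under 0.05). At single stages 0 members passed at any of the 6. The share of all features was 0.0329% at the meiocyte, mid-microspore and mid/late microspore stages, 0.0658% at dyad/tetrad, 0.0411% at tetrad and 0.0493% at early microspore. At an unadjusted p under 0.05 there were 19, 30, 31, 34, 53 and 39 members in order of stage. As shares of the members these are 11.1%, 17.5%, 18.1%, 19.9%, 31% and 22.8%, against 10.2%, 16.9%, 17.2%, 13.9%, 16.1% and 9.13% of all features.

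The members with the clearest floret difference averaged over stages included 4 of more than 1 on the log2 scale. Feature 4852 of LOC100382501 was higher in upper florets by 1.39 ± 0.16 (SE, limma adjusted p = 0.00211), with 12 values of stage and set from 0.06 to 2.69 and a median of 1.39. Feature 7311, tied to no gene, was higher by 1.36 ± 0.14 (limma adjusted p = 0.00114), from 0.04 to 3.08. Feature 7312 of LOC100384690 was higher by 1.15 ± 0.12 (limma adjusted p = 0.00139), from 0.22 to 2.14. All 12 values of each of these 3 features lay above 0, as did those of feature 1033 (1.09 ± 0.15) and feature 9936 (0.41 ± 0.06). Feature 1033 had r of 0.98 with feature 7311 and 0.99 with feature 7312 across the 24 pools. Feature 6366, tied to no gene, had r of 0.99 with features 1033 and 7312 and 0.97 with feature 7311. These features may therefore not be separate patterns. The pool values include the slides that chose the members, so these correlations are a description.

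In the other direction, feature 9126 of LOC100281623 was lower in upper florets, at -0.81 ± 0.11 (SE, limma adjusted p = 0.00277), and all 12 of its values lay between -1.40 and -0.21. Feature 2004 had -0.80, feature 2005 -0.67, feature 2965 of LOC100285658 -0.47 and feature 5249 -0.36. Features 7311 and 7312, and 2004 and 2005, are neighbours in number on the array and had r of 0.98 and 0.98 across the 24 pools. With floret slides turned by the dyes in the labels, 7 members passed in place of 47, a count with no share of all features set beside it.

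The size of the members' rise moved with scan intensity. Their median from early to mid-microspore was 2.10 on the low scans, 1.39 on the medium and 1.23 on the high scans, and 163, 113 and 93 of them reached 1.2 on each. In 84 members it reached 1.2 on all 3 scans. Of these, 70 (83.3%) were higher at the last stage than at the first, against 40 of the other 87 (46%). The share over all features was 13.8%.

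At a limit set after seeing the values, the members divided further. In 64 the rise on the high scans was less than 0.5 of that on the low scans, and 29 of these passed at the last stage (45.3%), against 81 of the other 107 (75.7%). None of the 12 one-gene members with the largest rise was among those 64, but 7 of the 10 named members were. PIP2-1 had 3.26 on the low, 0.43 on the medium and 0.42 on the high scans, GRF11 had 4.38, 1.05 and 1.10, and RR6 had 3.36, 0.83 and 0.71. By contrast zfp30 had 1.27, 1.26 and 1.21, fad7 had 1.58, 1.41 and 1.44, and feature 11708 of LOC100280212 had 2.84, 2.61 and 2.51.

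On at least 1 of the 4 low scans of this step, 33 members (19.3%) stood at the commonest value of their column, where 16% of all features did. Of these, 5 members, features 4924, 4030 (LOC100382062), 3782, 7352 and 3627, did so on all 4, with a low-scan rise of 0. Their mean rests on the other scans, as in feature 4030 with 3.99 on the medium and 1.65 on the high scans. Fitted on the low, medium or high scans alone, 93, 100 and 105 members were higher at the last than at the first stage. No shares of all features are set beside these single-scan counts.

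**Figure D5:**
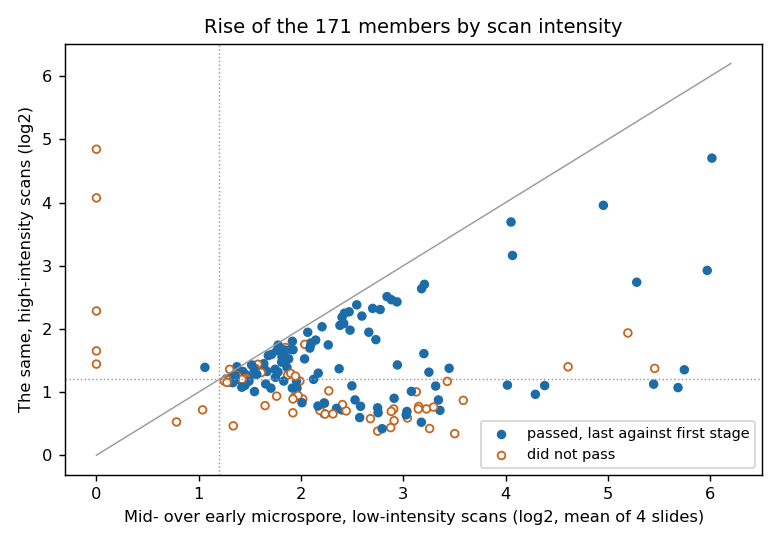
Rise of each of the 171 members from early to mid-microspore on the low-intensity scans (horizontal) and the high-intensity scans (vertical), as log2 means of 4 slides; filled blue points passed for the last against the first stage (110 higher and 2 lower) and open orange points did not. One run of points follows the line of equal values and another stays near 1 on the high scans whatever the low scans gave; the 5 points at 0 on the horizontal axis are the members at the commonest value of their low-scan columns, and dotted lines mark the threshold of 1.2.

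Of the 116 features in 12 lists of named genes, 2 were members (1.72%), near the 1.41% of members over the whole array, so the absence of members from a list is no result. The members held 1 feature of the transport list (PIP2-1, 17 features) and 1 of the desiccation and abscisic acid list (SnRK2.8, 5 features). In the first 3 features were higher at the last stage and 2 lower, in the second 1 and 2. The microspore and pollen list had 17 features on the array, of which 0 were members and 3 were higher at the last stage, both features of the profilin gene PRO4 (0.56 and 0.90) and the actin-binding protein gene ABP3 (0.92). All 4 lipid transfer features were higher and 0 were members, with 1.94, 1.34 and 0.84 for LTP3 and 0.60 for plt2.

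In the cell wall list 4 of 10 features were higher and 1 lower. GPRP and prp2, named as proline-rich protein genes, had 1.82 and 1.40 in the early to mid-microspore step but also 1.02 and 0.79 in the step before, outside the flat window. Of 9 flavonoid and phenylpropanoid features 5 were higher, of 13 starch and sucrose features 3, and of 12 photosynthesis features 5 were higher and 1 lower, with 0 members in each list. The flavonoid and phenylpropanoid calls were all features of c2 and PAL1, while CHI, A1, bz2 and cad did not pass. The starch and sucrose calls were SPS, which the choice leaves out, frk2 feature 9790 and ss2 feature 9109 (2.64). The other ss2 features had 0.09 to 0.41 and did not pass. Heat shock and chaperone features went the other way, with 10 of 21 lower and 0 higher. Those that were lower included several features of one gene, hsp70-4, so the count is not one of separate genes. Over all features 13.8% were higher and 13.8% lower. The tapetum list had 1 feature on the array, ms23, a transcription factor gene of tapetum development, at 0.70 (limma adjusted p = 0.087). Of 3 kernel storage protein features, of a tissue not sampled, 0 passed.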

How the data were processed

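The deposited values are log ratios of the 2 channels of each scan, already processed by the authors, with base and numerator not given in the sources used here. Per the labels, 24 RNA pools were hybridised in pairs on 48 slides with 3 scans each, 144 columns of 12160 features. The authors' values were read as natural log ratios, a reading taken over from earlier work on these values and not tested here. They were divided by the natural log of 2 to give log2 values, centred on each column's median and averaged over the 3 scans. Precision is limited by the number of arrays.

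Floret slides were used as deposited, read as upper over lower. In 10 closed squares of stage and floret slides the sides had r between 0.27 and 0.48 across features as deposited, and between -0.05 and 0.05 turned by the dyes. This reading was chosen after seeing values.

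Stage tests used pool values fitted in R 4.3.3 with MASS 7.3.60.0.1, by least squares, to the 40 slides that did not choose the members, without early microspore pools. They were fitted with limma 3.58.1 with pool set as a block (20 pools, 9 residual degrees of freedom). Floret tests used 12 means of dye swaps (6 residual degrees of freedom). P-values were adjusted by Benjamini-Hochberg over all 12160 features, and for single floret stages over all 6 stages together. The fits were tested on simulated data. Python 3.11.15 with matplotlib 3.10.9 made the figures.

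Genes came from the array annotation and the maize reference Zm-B73-REFERENCE-NAM-5.0, used for names only. Named are members with a gene name, the 12 one-gene members with the largest rise, the 3 features beside each threshold, the 5 largest and 5 smallest last-stage differences, up to 5 floret calls per direction, and members of the lists. Features 762, 1107, 3791, 3057 and those at the commonest value were named after their values were seen. The symbols mtl1 and AGP2 matched second genes, which were left out of the lists. The members, lists and tests were chosen with earlier results of these data known.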

Additional observations from a re-analysis of the deposited data

How the results depend on the processing

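The last-against-first call count of 110 members stayed between 74 and 131 under 17 other settings, of which the lowest was with columns scaled to one spread and the highest with all 48 slides, a fit that includes the 8 slides that chose the members and so is no independent support. Without that fit the highest was 114. Leaving out single pools gave 91 to 107. With no replicate block it was 113. Upper florets gave 49 with scaled columns and 41 with the direct slides alone, and 49 to 67 without single pools. Lower florets gave 42 with scaled columns and 44 to 52 without single pools. With no replicate block they gave 92 and 83. The floret difference gave 0 in all 16 settings. The dyad/tetrad call gave 0 with the medium scan alone, 2 with scaled columns and 0 without any single pool. Averaged floret calls fell from 47 to 7 with the slides turned by the dyes of the labels, stayed between 34 and 54 under the other settings and between 35 and 49 without single values, and were 48 with a replicate block. At single stages 0 became 2 with scaled columns and 0 to 5 without single values, and stayed 0 with a replicate block. No shares of all features are set beside the counts of these settings. They therefore do not show whether the members moved apart from the rest of the array.

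The choice itself gave 105 features with the high scan alone (89 of them members), 78 with the values read as log2, 90 with a rise of 1.5, and 84 members with the rise on each scan, an alternative chosen after seeing the data. Without one set it gave 245 and 238, of which 124 and 99 were members. Among the 22 one-gene members described in full, 341 of 374 settings kept the direction and side of the threshold, 29 lost the call and 1 gained it. Without single pools the difference of PIP2-1 ran from -0.019 to 0.195, below 0 without the lower meiocyte pool of set 1, and that of fad7 from -0.083 to 0.263, below 0 without the lower meiocyte or mid/late microspore pool of set 2 (-0.083 and -0.022). None of these passed. The cause of these shifts was not tested. Fits with fewer pools also have fewer residual degrees of freedom, which enter the p-values and not the differences.

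Set numbers pair pools that share slides. Deviations of same-numbered pools had r between -0.75 and 0.73 over 45 pairs of groups. Promoter motifs were not run.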

Other observations

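Members had neighbouring feature numbers in more cases than they had numbers at any larger distance counted. In 11 cases both of 2 features with neighbouring numbers were members (22 members). There were 4 such pairs at distance 2, 0 at distances 3 and 4, 3 each at distances 5 and 10, and 4 at distance 100. Over all features, 2.2% of neighbours in number had r above 0.9 across the 24 pools, 0.65% of those at distance 2 and 0.124% of those at distance 100, and the median r was 0.21 for neighbours and 0.02 at distance 100. Only 1 of the 3752 neighbouring pairs with a gene each had the same gene. Features 8629 and 8630 had r = 0.97 and features 2070 and 2071 r = 0.93, while 1 of the 11 pairs had a negative r (features 1930 and 1931, -0.19). The source of the likeness of neighbours was not tested.

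Among the 14535 pairs of members, 309 pairs made up of 62 features had r above 0.95 across the 24 pools, with a median r of 0.66 over all pairs of members. These correlations share the slides that chose the members for a like course, so likeness among them is partly built in. No figure for pairs of other features is set beside them, and they are a description. Of the 82 member genes in the reference annotation, 1 pair lay within 10 genes of each other (LOC100381440 and LOC100274111), and 0 were next to each other. No figure for other genes is set beside this, so it does not show whether the members are scattered or clustered. Dye swaps of one floret comparison had r between 0.16 and 0.57 across features as deposited. Turned by the dyes of the labels they had r between -0.57 and -0.16.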
